A study of Mus musculus with 12 samples.

Results

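The nephron segment transcription factors are the DNA-binding regulators that mark or pattern the successive stretches of the kidney tubule, from the proximal tubule through the loop of Henle and the distal tubule to the collecting duct, together with a few regulators of the nephron progenitor. A list of 37 mouse genes was taken as given, and a gene counted as a member when its symbol had a row in the deposited count table. Of the 37 listed genes 36 had a row, and Six2 was not analysed here. Of those 36, 33 passed a filter on low counts and were tested among 14180 of the 23378 genes in the table; Hnf4g, Eya1 and Osr1 were below the filter.

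The libraries were made from sorted cells of mouse kidney cortex. All mice were of the C57BL/6 strain and carried nNOS-CreERT2 and mTmG, so that Cre, a recombinase that needs tamoxifen to act in its CreERT2 form, was driven from the gene of neuronal nitric oxide synthase and switched cells from red to green membrane fluorescence. Green cells were collected as macula densa (MD) cells, and the cells with the brightest red fluorescence were collected as control cells (CC) meant to stand for the distal tubule and collecting duct. Mice received either a control diet or a diet low in salt together with enalapril, which blocks angiotensin converting enzyme, given in drinking water at 150 mg/L, for 14 days. There were 2 MD and 4 CC libraries on each diet, 12 in all. The mice's age is not given in the sources used here, and the labels do not say that libraries of a group came from separate animals, so that p-values measure only the spread between these libraries.

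The macula densa is a small plaque of tubular cells where the loop of Henle meets its own glomerulus, just before the distal convoluted tubule. It senses tubular salt through the cotransporter Slc12a1 and signals to the glomerulus and to the renin-producing cells. Along the tubule, segment identity is laid down by combinations of homeobox, POU-domain, AP-2, GATA, forkhead and nuclear receptor factors: Iroquois genes and Pou3f3 shape the loop of Henle, Tfap2b the distal nephron, Foxi1 the intercalated cells, Gata3 and Gata2 the collecting duct, and Hnf4a the proximal tubule.

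Library totals ran from 4259020 to 14856542 counts, of which a single noncoding RNA, Gm42418, took 53.5 to 65%, and 2186 to 13229 counts per library fell on the members. Levels are given as counts per 1000000 of the scaled library total (CPM), and 3 counts, taken as the floor of detection, corresponded to 0.231 to 0.734 CPM; intervals and floors of this kind cover counting error only. Of 6 macula densa markers 5 were higher in MD cells and 0 were lower. Nos1 was at 100 to 232 CPM in the 4 MD libraries and at 0.109 to 0.734 CPM in the 8 CC libraries. It is the gene that drove Cre for the sort, so its level is not independent of the label. Slc12a1 was at 1770 to 2030 CPM against 41.8 to 430 CPM, and Pappa2 at 228 to 774 CPM against 0 to 1.22 CPM. Ptges overlapped, at 4.1 to 16.6 CPM against 0.656 to 12 CPM. The CC libraries were mixed and unlike each other. Their 9 principal cell markers of the collecting duct summed to 132 to 928 CPM, but 7 podocyte markers summed to 1500, 1200, 768 and 47.2 CPM in CC replicates 1 to 4 on control diet and to 152, 1180, 225 and 991 CPM on low salt plus enalapril. The 7 endothelial markers followed, with 1420, 1140, 762 and 41.4 CPM and then 313, 785, 200 and 1120 CPM. In the MD libraries the same lists reached at most 171 and 147 CPM. The 9 markers of the thick ascending limb, the segment that holds the macula densa, summed to 2330 to 4200 CPM in MD and 210 to 1560 CPM in CC libraries, and 5 of the 9 were higher in MD cells. Slc12a1 is among those 9. The MD libraries held marker RNA of other segments too. Proximal tubule markers summed to 72.6 to 274 CPM in MD and 55 to 183 CPM in CC libraries. Of these 12 markers 4 were higher in MD cells and 1 was lower. Aqp1, at 1.97 to 8.92 CPM in MD and 20.8 to 81.3 CPM in CC libraries, added much to the CC sums. Distal convoluted and connecting tubule markers summed to 294 to 544 CPM in MD and 102 to 821 CPM in CC libraries. Most of the MD sum was Klk1, at 186 to 469 CPM, while Slc12a3 was at 51.3 to 116 CPM there. Of these 7 markers 1 was higher in MD cells and 0 were lower. Podocytes, which are glomerular cells, and endothelium both lie outside the labelled distal tubule and collecting duct. Among CC libraries, replicate 4 on control diet stood apart in holding the least podocyte and endothelial marker RNA. It also held the most thick ascending limb (1560 CPM) and distal convoluted and connecting tubule (821 CPM) marker RNA among them. The part of these cell types in the member results was not tested, and values without that library are given below.

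With both diets averaged, 17 of the 33 tested members differed between MD and CC cells at an adjusted p under 0.05, where 21.3% of all genes tested did. Of these, 7 were higher in MD cells (7.48% of all genes were) and 10 were lower (13.9% of all genes were). Higher were Irx1, Irx2, Tfap2b, Esrrg, Tfcp2l1, Mecom and Pou3f3, and lower were Gata2, Gata3, Elf5, Foxi1, Osr2, Irx3, Nfia, Sim2, Pax8 and Nfib. In 13 members all 4 MD libraries lay on one side of all 8 CC libraries, against 9.58% of all genes. Of these, 5 lay above (4.31% of all genes) and 8 below (5.28%). Elf5 and Osr2, among the lower members and those lying below, passed the filter on low counts only through CC libraries. That largely set the direction of their calls. The median log2 fold change over the members was -0.18, beside -0.06 over all genes, while the median size of the change regardless of sign was 1.07 on the log2 scale, beside 0.47. These are bulk samples, in which fewer cells of a type and less RNA per cell cannot be told apart. Without CC replicate 4 on control diet, 19 members passed, 9 of them higher, and the 17 above were among them; 28.2% of all genes passed in that setting. Of the 9 thick ascending limb markers 5 were higher in MD cells, as were the 7 raised members, and 0 were lower. The part of those markers in the results for the 7 raised members was not tested.

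**Figure D1:**
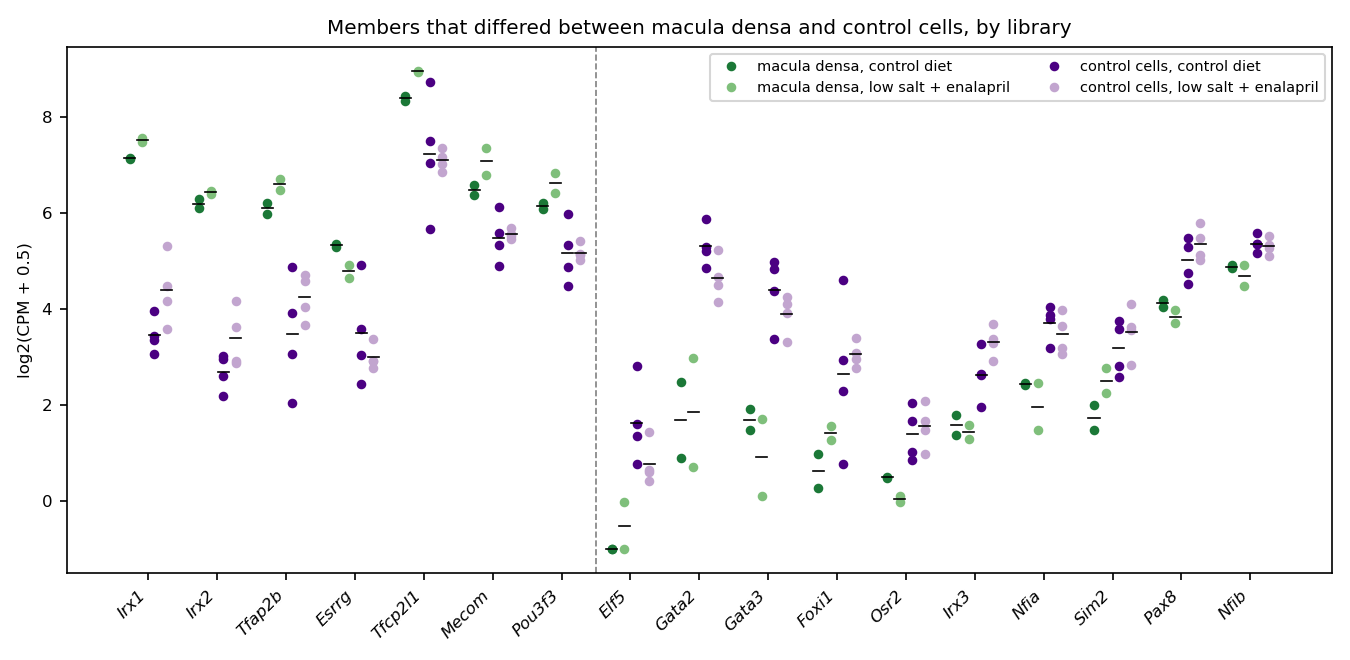
Level of each of the 17 members that differed between MD and CC cells, as log2(CPM + 0.5) on the vertical axis, with a point per library and a bar at the mean of each group (2, 2, 4 and 4 libraries). The 7 members left of the dashed line were higher in MD cells and the 10 to its right lower; the CC points of Tfcp2l1 and Foxi1 spread far more widely than those of Nfib.

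The Iroquois homeobox genes, which pattern the middle of the nephron, held the highest fold changes among the members and also a member that went the other way. Irx1 (chr13:71957921-71963723, minus strand, GRCm38) was at 142 and 140 CPM in MD cells on control diet and at 189 and 178 CPM on low salt plus enalapril. In CC cells it was at 9.73, 7.89, 15 and 10.3 CPM on control diet and at 22, 17.6, 39.3 and 11.6 CPM on low salt plus enalapril. Every MD library was far above every CC library. The log2 fold change averaged over diets was 3.37 (SE 0.27, adjusted p = 1.47e-05, edgeR quasi-likelihood test).

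Irx2 (chr13:72628820-72634198, plus strand), its neighbour in the same Iroquois cluster, was also higher. It was at 77.5 and 68 CPM, then 87.7 and 84.3 CPM in MD cells, and at 4.04 to 7.62 CPM and 6.86 to 17.6 CPM in CC cells on the respective diets, with a log2 fold change of 3.28 (SE 0.25, adjusted p = 9.62e-06). Irx3 (chr8:91798525-91802067, minus strand), a factor of intermediate tubule formation from the other Iroquois cluster, was lower instead. Its MD values were 2.97, 2.12, 2.49 and 1.97 CPM, and its CC values were 5.69, 3.38, 9.24 and 5.79 CPM on control diet and 12.4, 7.1, 9.87 and 9.26 CPM on low salt plus enalapril. MD and CC values were fully apart, and the log2 fold change was -1.68 (SE 0.29, adjusted p = 0.00227). Irx3 shares 124 exon bases with its antisense gene Irx3os, so its level is uncertain, as are those of other members that share exon bases with a gene on the other strand, because no source says whether reads were assigned by strand.

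Within libraries, per kilobase of exon, Irx1 exceeded Irx3 by 50.3 and 69.7 times in MD cells on control diet and by 80 and 95.4 times on low salt plus enalapril. In the 8 CC libraries that ratio was 1.32 to 4.19. By contrast Irx1 over Irx2 was 2.3 to 2.7 in MD libraries and 1.66 to 3.22 in CC libraries, ranges that overlap. Irx1 and Irx2 thus stood in overlapping proportions in both populations, and Irx1 and Irx3 did not.

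The AP-2 factors showed the same kind of split. Tfap2b (chr1:19208914-19238576, plus strand), a determinant of the distal nephron, was at 62.9 and 73.8 CPM in MD cells on control diet and at 105 and 89.1 CPM on low salt plus enalapril. Its CC values were 3.61, 7.89, 14.7 and 29 CPM and 23.7, 12.2, 25.8 and 15.9 CPM. No CC library reached an MD library, and the log2 fold change was 2.31 (SE 0.39, adjusted p = 0.00208). Tfap2a, its paralogue, was at 1.95 to 4.21 CPM in MD cells and at 1.09 to 12 CPM in CC cells, overlapping, with a log2 fold change of -0.85 (SE 0.50, adjusted p = 0.253). Per kilobase, Tfap2b exceeded Tfap2a by 14.8 to 29.2 times in MD libraries and by 1.86 to 3.52 times in CC libraries. Tfap2a shares 380 exon bases with the antisense gene Gm26688, which also has a row in the table.

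**Figure D2:**
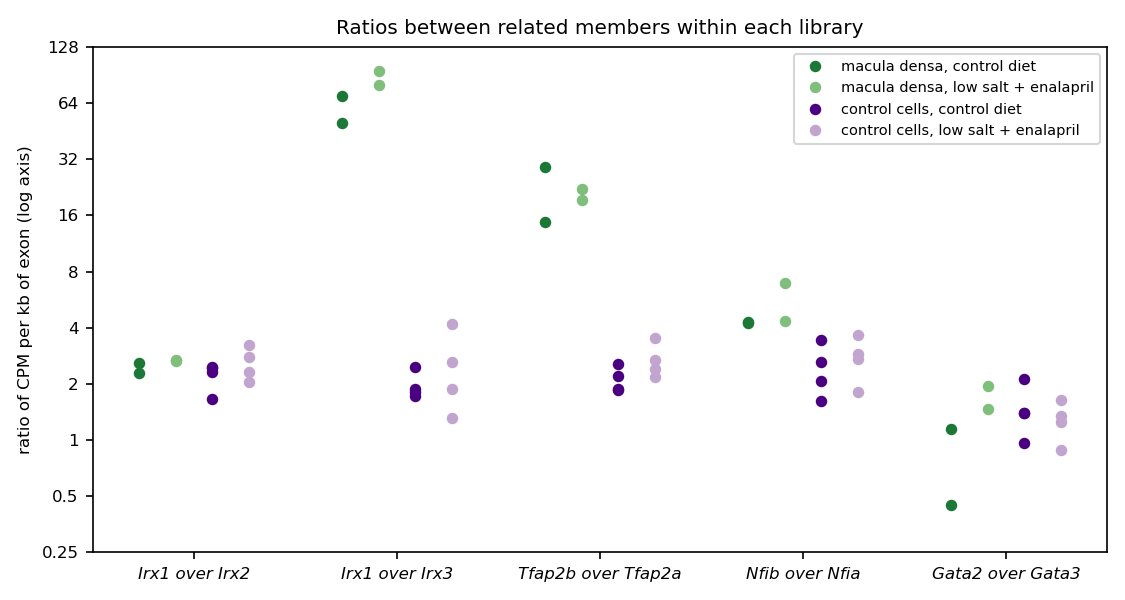
Ratio of the level per kilobase of exon of related members within each library (vertical axis, log scale), with a point per library. Irx1 over Irx3, Tfap2b over Tfap2a and Nfib over Nfia are separated between MD and CC libraries, while Irx1 over Irx2 and Gata2 over Gata3 overlap.

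Because the AP-2 member Tfap2b was among the most raised, the promoters of 3 of the 6 called members with the palindromic AP-2 motif in a window are shown: Irx2 and Tfcp2l1, which were higher in MD cells, and Gata3, which was lower and holds the most copies. They were picked after their values were seen, and the other 3, not shown, are Esrrg, Foxi1 and Gata2. Each is the RefSeq window of 300 bases on GRCm38.p6, from 250 before to 50 after a transcript start, written 5′ to 3′ on the strand of the gene; capitals mark GCCNNNGGC, searched on both strands. The windows are chr13:72628570-72628869 (plus) for Irx2, chr1:118627695-118627994 (plus) for Tfcp2l1 and chr2:9878551-9878850 (minus) for Gata3.
Irx2: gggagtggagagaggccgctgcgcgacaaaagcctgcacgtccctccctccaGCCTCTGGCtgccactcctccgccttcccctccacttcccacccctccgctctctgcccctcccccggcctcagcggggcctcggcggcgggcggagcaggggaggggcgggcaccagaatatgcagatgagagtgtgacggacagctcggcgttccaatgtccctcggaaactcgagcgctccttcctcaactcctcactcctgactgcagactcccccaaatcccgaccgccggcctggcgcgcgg
Tfcp2l1: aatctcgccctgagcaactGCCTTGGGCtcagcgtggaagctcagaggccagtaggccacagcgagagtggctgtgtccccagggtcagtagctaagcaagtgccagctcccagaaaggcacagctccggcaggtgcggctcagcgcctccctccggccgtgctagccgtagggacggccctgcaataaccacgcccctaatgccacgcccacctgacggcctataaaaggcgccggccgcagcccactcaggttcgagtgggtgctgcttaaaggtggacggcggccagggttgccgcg
Gata3: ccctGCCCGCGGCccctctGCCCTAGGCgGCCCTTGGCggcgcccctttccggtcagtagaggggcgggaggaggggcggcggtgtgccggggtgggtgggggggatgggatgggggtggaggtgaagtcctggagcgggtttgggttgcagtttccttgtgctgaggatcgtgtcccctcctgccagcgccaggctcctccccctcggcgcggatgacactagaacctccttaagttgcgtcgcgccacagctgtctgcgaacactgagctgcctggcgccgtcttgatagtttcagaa

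Irx2 and Tfcp2l1 hold 1 copy each, and Gata3 holds 3 copies close together at the far end of its window. Windows were found for 28 listed members, 42 windows in all with alternative starts, Six2 among them. Of the 42 windows 10 held the AP-2 motif, where 16.6% of 32851 mouse promoter windows of that length did; the member windows were richer in G and C, with a median of 60% against 52.7%, and the motif is itself made of those bases. The GATA motif AGATAA was in 3 windows (11.2% of all), and TCAAGGTCA of estrogen-related receptors (0.423% of all) and CAAAGTCCA of Hnf4 (0.475%) were in none. A match is only a run of letters, not a bound site, and no match says only that these letters are not in these windows.

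Pou3f3 (chr1:42695768-42703176, plus strand), the POU-domain factor needed to form the loop of Henle, was at 73.1, 67.9, 85.6 and 113 CPM in the MD libraries. In CC cells it was at 22, 28.8, 39.7 and 63 CPM on control diet and at 42.2, 34.5, 31.9 and 34.9 CPM on low salt plus enalapril. The lowest MD library was just above the highest CC library, replicate 4 on control diet, and the log2 fold change was 1.17 (SE 0.23, adjusted p = 0.00492). Mecom (chr3:29951296-30548008, minus strand), a zinc finger factor of the distal nephron, was at 82.5, 95.2, 163 and 111 CPM in MD cells against 29.4 to 69.8 CPM and 43.5 to 50.9 CPM in CC cells. Its log2 fold change was 1.24 (SE 0.20, adjusted p = 0.00166), again with no overlap between libraries; 81 of its exon bases lie over the antisense gene Mecomos.

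Of the estrogen-related receptors, nuclear receptors that support mitochondrial metabolism, Esrrg (chr1:187608791-188214885, plus strand) was higher in MD cells. It was at 40.6, 38.7, 24.7 and 29.7 CPM there, and at 4.92, 7.8, 11.6 and 29.8 CPM and then 7.07, 6.37, 9.87 and 7.12 CPM in CC cells. CC replicate 4 on control diet lay among the MD values and the other 7 CC libraries below them. The log2 fold change was 1.70 (SE 0.36, adjusted p = 0.00659). Esrra (log2 fold change -0.05, SE 0.30) and Esrrb (0.28, SE 0.58) overlapped between the populations and did not pass.

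Tfcp2l1 (chr1:118627945-118685168, plus strand), a grainyhead-related factor of the distal tubule and collecting duct, was strongly expressed in both populations. It was at 346 and 324 CPM in MD cells on control diet and at 498 and 491 CPM on low salt plus enalapril. In CC cells it was at 50.6, 132, 181 and 426 CPM and at 163, 116, 130 and 144 CPM, so that CC replicate 4 on control diet overlapped the MD range. The log2 fold change was 1.30 (SE 0.38, adjusted p = 0.0302). The call was lost without any single MD library, without CC replicate 2 or 3 on control diet and without CC replicate 2 or 4 on low salt plus enalapril, with adjusted p between 0.0552 and 0.0938 and log2 fold changes between 1.22 and 1.31; without CC replicate 4 on control diet it was 1.65 (adjusted p = 0.000632).

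Set on a per-kilobase scale, the order of the members also differed. In MD cells the leading level was that of Irx1 (53.8 CPM per kb on control diet and 70.1 with low salt plus enalapril), followed by Tfcp2l1 (35.5 and 52.4) and Irx2 (22.2 and 26.2). In CC cells Tfcp2l1 led on both diets (20.9 and 14.7 CPM per kb), followed on control diet by Gata2 (7.52), Sox4 (5.85) and Ehf (5.79), whose libraries overlap. Irx1 was at 4.10 CPM per kb there. On low salt plus enalapril Irx1 (8.63), Ehf (7.84) and Pax8 (6.85) came after Tfcp2l1 in CC cells, and their libraries overlap as well.

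The GATA factors of the collecting duct were strongly lower in MD cells. Gata3 (chr2:9857078-9890034, minus strand), which acts in the nephric duct and its descendants, was at 3.28, 2.28, 0.575 and 2.79 CPM in MD cells. It was at 9.84, 28.2, 20.2 and 31.2 CPM in CC cells on control diet and at 18.6, 14.7, 9.45 and 16.7 CPM on low salt plus enalapril. No library overlapped, and the log2 fold change was -3.06 (SE 0.42, adjusted p = 0.000506). Without MD replicate 2 on low salt plus enalapril the change was -3.84 (adjusted p = 0.00152). Gata3 shares 77 exon bases with 9230102O04Rik on the same strand.

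Gata2 (chr6:88193891-88207032, plus strand), which promotes expression of the water channel Aqp2 and is also an endothelial factor, was at 5.13, 1.38, 1.15 and 7.38 CPM in MD cells. In CC cells it was at 28.4, 36.7, 38.5 and 58.7 CPM and at 22.3, 25, 17.2 and 37.3 CPM. All CC values were above all MD values, and the log2 fold change was -3.10 (SE 0.48, adjusted p = 0.00114). It was -4.05 (adjusted p = 0.00148) without MD replicate 2 on low salt plus enalapril and -3.72 (adjusted p = 0.00231) without MD replicate 1 on control diet. Both GATA factors were at their highest in CC replicate 4 on control diet. Among CC libraries it had the lowest podocyte and endothelial marker sums (47.2 and 41.4 CPM) and the highest principal cell marker sum (928 CPM). The part of podocyte, endothelial and principal cell RNA in the GATA values was not tested. Per kilobase, Gata2 over Gata3 was 0.447 to 1.95 in MD and 0.883 to 2.13 in CC libraries, with no separation.

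Foxi1 (chr11:34204338-34208089, minus strand), the forkhead factor of intercalated cells, was at 0.718, 1.47, 1.92 and 2.46 CPM in MD cells. In CC cells it was at 1.2, 4.42, 7.14 and 23.9 CPM on control diet and at 10.1, 6.37, 7.35 and 8.04 CPM on low salt plus enalapril. CC replicate 1 on control diet lay within the MD range and the other 7 above it. The log2 fold change was -2.45 (SE 0.65, adjusted p = 0.0192), and without CC replicate 4 on control diet it was -1.90 (adjusted p = 0.00548). The call was lost without any single MD library, with adjusted p between 0.0615 and 0.0806 and log2 fold changes between -2.77 and -2.27. The 7 intercalated cell markers ran alongside, at 25.6, 96.6, 133 and 385 CPM in CC replicates 1 to 4 on control diet and 18.8 to 37.2 CPM in MD cells, and 4 of the 7 were lower in MD cells; their part in the Foxi1 result was not tested.

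Of the epithelium-specific ETS factors, Elf5 (chr2:103411688-103450989, plus strand), a factor of principal cells, was lower in MD cells (adjusted p = 0.00413). It had 0 counts in both MD libraries on control diet and 0 and 3 counts in the MD libraries on low salt plus enalapril. Elf5 thus passed the filter on low counts only through CC libraries, so that a call could come out only as lower. In CC cells it was at 1.2, 2.07, 2.57 and 6.51 CPM and at 1.08, 2.2, 0.84 and 1.02 CPM. On control diet it was at least 10-fold lower in MD cells, taking 3 counts per MD library as the floor. Its relatives Ehf, at 47.5 to 60.9 CPM in MD and 14.7 to 61.7 CPM in CC cells, and Elf3, at 5.58 to 7.39 and 3.72 to 22.8 CPM, overlapped and did not pass (log2 fold changes 0.61, SE 0.33, and -0.65, SE 0.48). The 9 principal cell markers summed to 22.9 to 48.7 CPM in MD libraries and 132 to 928 CPM in CC libraries, and 8 of the 9 were lower in MD cells; their part in the results for Gata2, Gata3 and Elf5 was not tested.

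Pax8 (chr2:24420560-24475599, minus strand), the paired box factor of the whole renal epithelial lineage, was present everywhere but lower in MD cells. It was at 17.8, 16, 12.6 and 15.3 CPM there, at 26.5, 22.6, 38.9 and 44.1 CPM in CC cells on control diet and at 55, 34.3, 44.5 and 32.2 CPM on low salt plus enalapril. No library overlapped, and the log2 fold change was -1.27 (SE 0.23, adjusted p = 0.0028). Its paralogue Pax2 did not follow: it was at 12.4 to 19.5 CPM in MD and 9.62 to 26.7 CPM in CC cells, with a log2 fold change of -0.21 (SE 0.25, adjusted p = 0.601). Pax8 shares 367 exon bases with Gm13415 on the other strand.

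The nuclear factor I genes, which act in the differentiation of many tissues, were both lower. Nfia (chr4:97772734-98118874, plus strand) was at 4.82, 5.05, 4.98 and 2.3 CPM in MD cells and at 13.3, 15.9, 14.2 and 8.57 CPM, then 7.92, 15.4, 8.61 and 12.1 CPM in CC cells, with a log2 fold change of -1.50 (SE 0.27, adjusted p = 0.0032). Nfib (chr4:82290173-82705750, minus strand) was the steadiest called member, at 28.4, 29.6, 29.7 and 21.8 CPM against 47.8, 35.4, 40.3 and 40.3 CPM and 39.9, 38.2, 34.2 and 45.4 CPM. Neither overlapped between populations. The Nfib change of -0.56 (SE 0.15, adjusted p = 0.0205) lost its call without MD replicate 1 or 2 on control diet or MD replicate 2 on low salt plus enalapril (-0.55, -0.57 and -0.45, adjusted p = 0.0727, 0.0760 and 0.0954), and with library totals alone as the scale (-0.36, adjusted p = 0.167). The 3 CC libraries with the least podocyte and endothelial marker RNA were replicate 4 on control diet and replicates 1 and 3 on low salt plus enalapril. They had the lowest CC values of Nfia, at 8.57, 7.92 and 8.61 CPM, and the highest MD value was 5.05 CPM. The part of those markers in the Nfia values was not tested.

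Sim2 and Osr2 were lower at low levels. Sim2 (chr16:94084931-94127032, plus strand), a basic helix-loop-helix PAS factor, was at 3.49, 2.28, 6.32 and 4.27 CPM in MD cells and at 13, 5.54, 11.6 and 6.51 CPM, then 11.8, 11.3, 16.8 and 6.61 CPM in CC cells. Only MD replicate 1 on low salt plus enalapril overlapped, with a single CC library. The log2 fold change was -1.40 (SE 0.32, adjusted p = 0.00993), and the call was lost without MD replicate 2 on control diet (-1.26, adjusted p = 0.0608) or MD replicate 2 on low salt plus enalapril (-1.27, adjusted p = 0.0569). Its relative Sim1 was at 29 to 41.3 CPM in MD and 10.3 to 40.6 CPM in CC cells, with a log2 fold change of 0.74 (SE 0.30, adjusted p = 0.101). Osr2 (chr15:35296098-35303305, plus strand), an odd-skipped zinc finger factor, was at 0.923, 0.896, 0.575 and 0.492 CPM in MD cells, near the floor, and at 1.32 to 3.76 CPM in the 8 CC libraries (log2 fold change -1.78, SE 0.42, adjusted p = 0.0106). Like Elf5, it passed the filter on low counts only through CC libraries, which largely set the direction of its call.

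**Figure D3:**
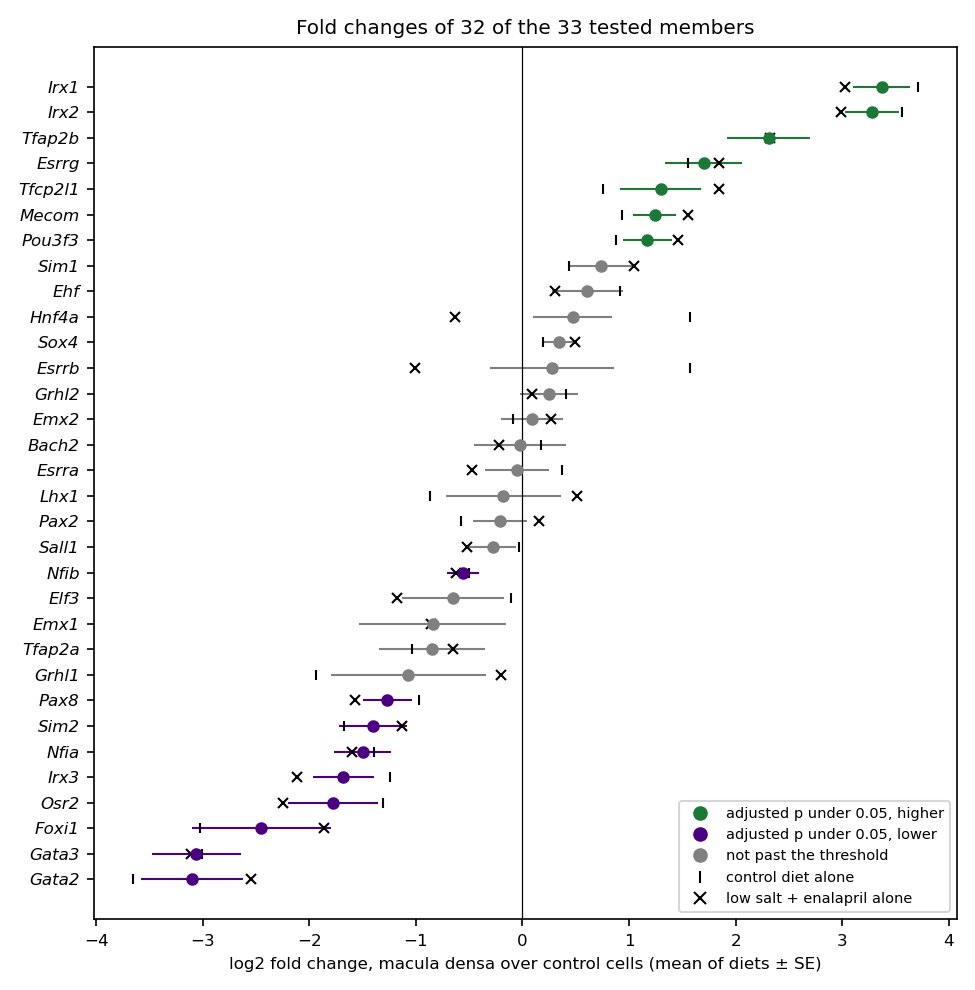
Log2 fold change of MD over CC cells (horizontal axis) for 32 tested members, as the mean of the diets with its SE, and as ticks and crosses for each diet alone; Elf5 is left out because both MD libraries on control diet had 0 counts. Irx1, Irx2 and Tfap2b stand at the high end, Gata2 and Gata3 at the low end, and Hnf4a and Esrrb, among others, have opposite signs on the 2 diets.

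The 16 tested members that did not pass spanned log2 fold changes from -1.07 (Grhl1, SE 0.73) to 0.74 (Sim1). They included Hnf4a, the master factor of the proximal tubule (0.47, SE 0.37, adjusted p = 0.404), Lhx1, a LIM homeobox factor of early nephron formation (-0.18, SE 0.54), and Sall1, a zinc finger factor of the progenitor (-0.28, SE 0.22). Emx2, a homeobox factor of the nephric duct, was at 13.5 to 18.4 CPM in MD and 6.23 to 26.7 CPM in CC cells (0.09, SE 0.29), and it shares 264 exon bases with Emx2os. Sox4, an HMG box factor, was at 28.1 to 35.8 and 20.3 to 31.9 CPM (0.34, SE 0.14, adjusted p = 0.108), and Grhl2, a factor of epithelial junctions, at 14 to 16.1 and 6.89 to 19.6 CPM (0.25, SE 0.27). Emx1 (-0.84, SE 0.69) and Bach2 (-0.02, SE 0.43) were at most 7.13 and 4.23 CPM in any library. Below the filter, Hnf4g, Eya1 and Osr1 reached at most 0.630, 0.979 and 1.53 CPM.

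On control diet alone, 8 members passed, against 6.61% of all genes tested. The 3 higher ones (2.69% of all genes) were Irx1 at a log2 fold change of 3.71 (SE 0.38), Irx2 at 3.56 (SE 0.35) and Tfap2b at 2.31 (SE 0.56). The 5 lower ones (3.92% of all genes) were Gata2 at -3.65 (SE 0.69), Gata3 at -3.01 (SE 0.56), Sim2 at -1.67 (SE 0.46), Nfia at -1.39 (SE 0.37) and Elf5. Adjusted p ran from 0.000398 for Irx1 and Irx2 to 0.0497 for Sim2. In 19 members the MD and CC libraries were fully apart, against 31.9% of all genes. The count moved with single libraries: it was 3 without MD replicate 1 (1.61% of all genes), 2 without MD replicate 2 (0.755%), 5 without CC replicate 2 (3.27%) or CC replicate 3 (2.94%), and 15 without CC replicate 4 (17.7%), so the share of all genes moved alongside. Gata2 was at -4.85 without MD replicate 1 and at -2.94 without MD replicate 2, where its call was lost (adjusted p = 0.149), and Tfap2b was at 2.96 without CC replicate 4. With library totals alone as the scale 9 members passed, 6 higher and 3 lower, against 6.14% of all genes.

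On low salt plus enalapril, 10 members passed, against 7.27% of all genes. The 5 higher ones (3.15% of all genes) were Irx1 at 3.03 (SE 0.38), Irx2 at 2.99 (SE 0.35), Tfap2b at 2.32 (SE 0.56), Mecom at 1.55 (SE 0.29) and Pou3f3 at 1.46 (SE 0.33). The 5 lower ones (4.13% of all genes) were Gata3 at -3.11 (SE 0.61), Gata2 at -2.55 (SE 0.67), Irx3 at -2.12 (SE 0.43), Nfia at -1.60 (SE 0.40) and Pax8 at -1.57 (SE 0.33). Adjusted p ran from 0.000666 for Irx2 to 0.0401 for Gata2. In 20 members the MD and CC libraries were fully apart, against 34.8% of all genes. The count was 3 without MD replicate 1 (3.69% of all genes), 5 without MD replicate 2 (1.22%), 6 without CC replicate 2 (4.29%) or CC replicate 4 (3.68%), all on that diet, and with library totals alone it was 10, 7 higher and 3 lower. Without MD replicate 1 Gata3 was at -2.46 and Gata2 at -1.83, both without a call (adjusted p = 0.072 and 0.14), and Nfia was at -2.28. Without MD replicate 2 Gata3 was at -4.70 and Gata2 at -4.48. The 10 members that passed with library totals alone stood against 7.95% of all genes in that setting. Passing on both diets were 6 members, Irx1, Irx2, Tfap2b, Gata3, Gata2 and Nfia, and of these only Irx1 and Irx2 passed on both diets in every alternative run.

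Diet itself moved no member past the threshold. In MD cells, low salt plus enalapril against control diet gave 0 called members and 0% of all genes with edgeR. DESeq2's Wald test gave 0 members and 0.656% of all genes. With edgeR on only the groups compared there were 0 members and 0.927% of all genes. At an unadjusted p under 0.05 in the main edgeR test there were 2 members, against 11.2% of all genes. They were Hnf4a and Esrra, both with lower values on low salt plus enalapril. Hnf4a (chr2:163506808-163572910, plus strand) was at 6.26 and 8.15 CPM on control diet and at 3.07 and 1.15 CPM on low salt plus enalapril, without overlap, for a log2 fold change of -1.79 (SE 0.62, adjusted p = 0.335). Leaving out MD replicate 1 or 2 on low salt plus enalapril gave -2.70 and -1.29. Esrra, the estrogen-related receptor of oxidative metabolism (chr19:6910977-6921813, minus strand), was at 5.85 and 8.06 CPM and at 0.958 and 4.59 CPM, for a log2 fold change of -1.30 (SE 0.50, adjusted p = 0.37). Its value rested on MD replicate 1 on low salt plus enalapril, without which it was -0.67, and 73 of its exon bases lie over Trmt112 on the other strand. The 12 proximal tubule markers summed to 178 and 274 CPM in the MD libraries on control diet and to 72.6 and 139 CPM on low salt plus enalapril, and their part in the Hnf4a values was not tested.

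Among the members higher in MD cells, values in MD libraries on low salt plus enalapril lay above those on control diet for Irx1, Irx2, Tfap2b, Tfcp2l1, Mecom and Pou3f3, with log2 fold changes between 0.24 and 0.62, and below for Esrrg (-0.54, SE 0.60). None of these passed, with adjusted p from 0.537 to 0.86. In all, 17 members did not overlap between the diets in MD cells, against 40.6% of all genes in these groups of 2. Of these, 10 lay above (18.8% of all genes) and 7 below (21.8%).

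In CC cells 0 members passed, against 0.00705% of all genes with edgeR, and 0 passed against 0.522% with DESeq2. In the main edgeR test 3 members had an unadjusted p under 0.05, against 6.45% of all genes. They were the 3 Iroquois members. Irx1, at 7.89 to 15 CPM on control diet and 11.6 to 39.3 CPM on low salt plus enalapril, had a log2 fold change of 1.07 (SE 0.33, adjusted p = 0.564). Irx2 had 0.82 (SE 0.30, adjusted p = 0.689) and Irx3 0.69 (SE 0.30, adjusted p = 0.737). The libraries of both diets overlapped for all 3. Without CC replicate 3 on low salt plus enalapril, the library highest in Irx1 and Irx2, the changes of those genes were 0.67 and 0.51. Macula densa markers summed to 437 CPM in that library, the highest among CC libraries, of which 430 CPM was Slc12a1, while Nos1 was at 0.420 CPM. Thick ascending limb markers summed to 969 CPM in it, against 326 to 767 CPM in the other 3 CC libraries on that diet and 210 to 1560 CPM on control diet; the part of both lists in the Irx1 and Irx2 values was not tested. Esrra was the only member without overlap between the diets in CC cells, and lower on low salt plus enalapril, against 2.09% of all genes, at 4.7 to 6.92 CPM on control diet and 3.69 to 4.2 CPM on low salt plus enalapril (log2 fold change -0.46, SE 0.34, adjusted p = 0.957).

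**Figure D4:**
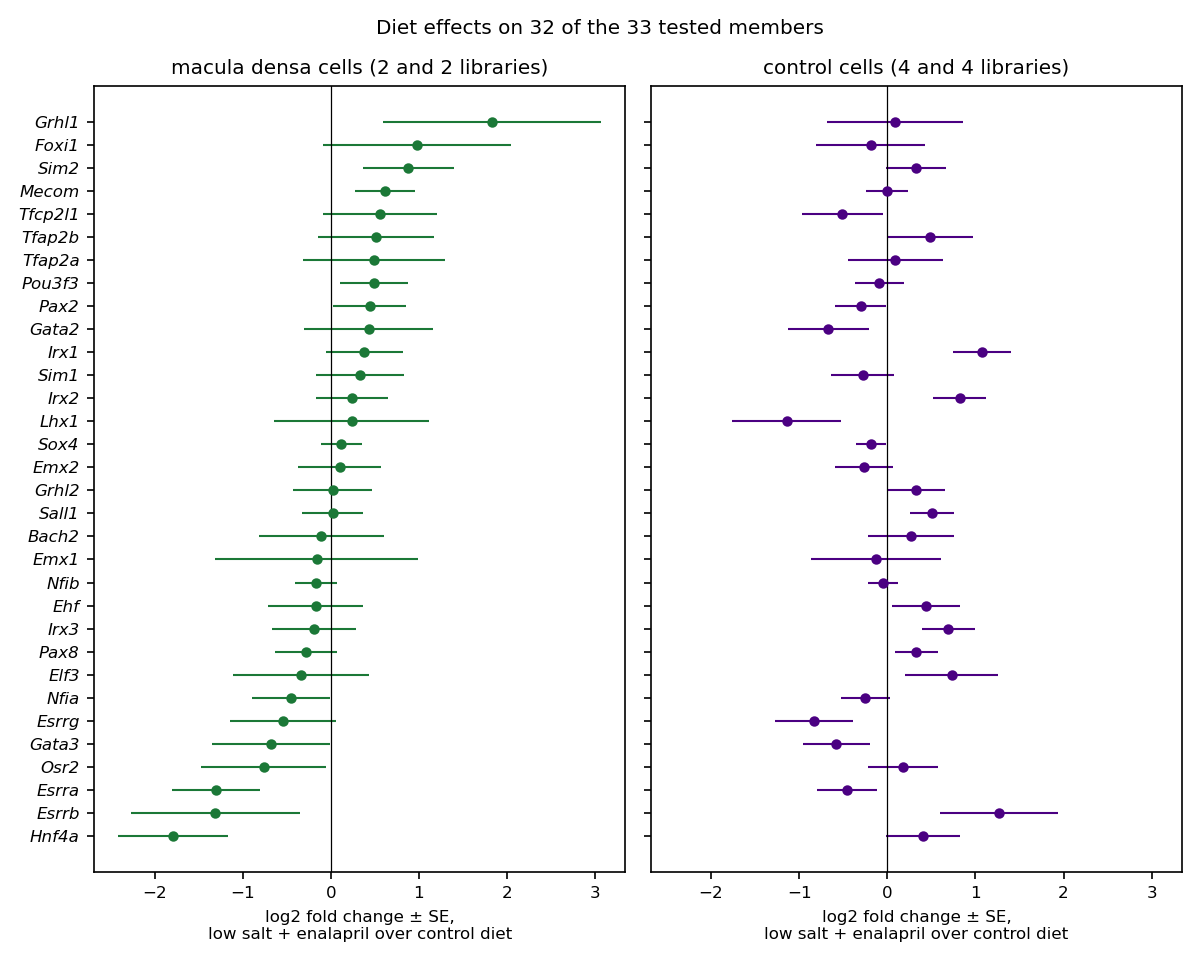
Log2 fold change of low salt plus enalapril over control diet with its SE (horizontal axes) for 32 tested members, in MD cells on the left and CC cells on the right; Elf5 is left out for its 0 counts. No member passed an adjusted p under 0.05 in either population, Hnf4a and Esrra are the MD members and Irx1, Irx2 and Irx3 the CC members with an unadjusted p under 0.05.

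The diet effect in MD cells minus that in CC cells also gave 0 called members and 0% of all genes with edgeR. DESeq2 likewise gave 0 members, against 0.0917% of all genes. In the main edgeR test 3 members had an unadjusted p under 0.05, against 7.03% of all genes. Hnf4a had a difference of -2.19 on the log2 scale (SE 0.75, adjusted p = 0.635) and Esrrb -2.58 (SE 1.17, adjusted p = 0.709). Esrrb was at 5.95 and 7.74 CPM and at 3.07 and 2.46 CPM in MD cells, and at 0.437 to 4.96 CPM and 1.53 to 11.6 CPM in CC cells. The third was Elf5, whose counts in MD cells are at or under the floor. The median SE of the members was 0.54 for the diet effect in MD cells and 0.38 in CC cells, on the log2 scale.

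The CC libraries differed from each other in many members. Of the 33 tested members 15 were at their highest, among the 8 CC libraries, in CC replicate 4 on control diet, and 15 at their lowest in CC replicate 1 on control diet. Between the extreme CC libraries Esrrb differed 26.4-fold, with 4 counts in the lowest, Foxi1 19.8-fold and Tfap2a 11.0-fold, whereas Nfib differed 1.40-fold and Sox4 1.57-fold. CC replicate 1 on control diet had the highest podocyte and endothelial marker sums (1500 and 1420 CPM), and CC replicate 4 on control diet the lowest (47.2 and 41.4 CPM). Among the 4 MD libraries Irx1 varied 1.35-fold, Irx2 1.29-fold and Tfcp2l1 1.54-fold, and Esrra 8.42-fold, Hnf4a 7.09-fold and Gata2 6.42-fold.

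**Figure D5:**
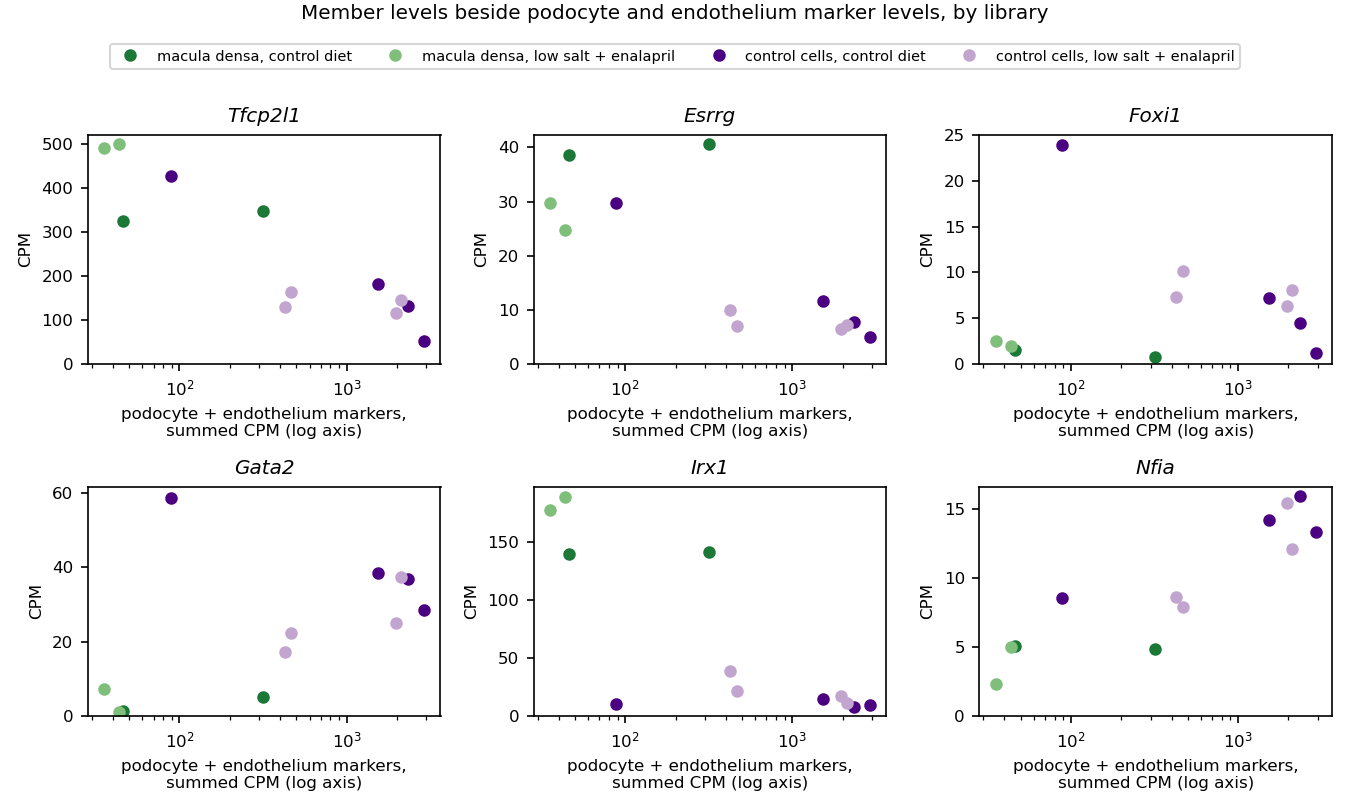
Level of 6 members in CPM (vertical axes) beside the summed level of the podocyte and endothelial markers in CPM (horizontal axes, log scale), with a point per library. CC replicate 4 on control diet, the dark purple point at the left of each panel, is near the MD libraries for Tfcp2l1 and Esrrg, and far from them for Irx1, Gata2 and Foxi1.

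Relatives and other regulators were read from lists that hold no member. Of 41 relatives of the members 30 had a row and 22 were tested. Averaged over diets, 1 of the 22 was higher in MD cells (7.48% of all genes were) and 4 were lower (13.9% of all genes were). The higher one was Prdm16, the paralogue of Mecom, at means of 46.5 and 45 CPM in MD and 25.7 and 23.2 CPM in CC cells (log2 fold change 0.90, SE 0.23, adjusted p = 0.0149). Lower were Irx5, the neighbour of Irx3, with Gata5, Eya2 and Sall4. Irx5, Eya2 and Sall4, at means of at most 0.287 CPM in either MD group, passed the filter on low counts only through CC libraries. That largely set the direction of their calls. Gata5 was at means of 2.1 and 0 CPM in MD and 16.3 and 9.41 CPM in CC cells. Of 27 other kidney epithelial regulators, all tested, 8 were lower, against 13.9% of all genes. Among those that were higher was Vdr, the vitamin D receptor, at means of 41.2 and 66.5 CPM in MD and 11.1 and 14.7 CPM in CC cells (2.03, SE 0.29, adjusted p = 0.000672). The lower ones of highest level were Foxc1 (-2.46, SE 0.42, adjusted p = 0.0021), Foxp1 (-1.11, SE 0.15, adjusted p = 0.000543) and Wt1 (-4.42, SE 1.07, adjusted p = 0.0128), of which Foxc1 and Wt1 are podocyte factors. Wt1 was at means of 2.16 and 0.383 CPM in MD and 22 and 16.7 CPM in CC cells. Among the 8 lower regulators, Hey1, Foxc2 and Dmrt2 had means of at most 0.594 CPM in either MD group. They could pass the filter on low counts only with CC libraries, which largely set the direction of their calls. None of either list passed in a diet comparison.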

How the data were processed

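Total RNA of sorted cells was made into stranded libraries, all at the same time, with a kit for very little RNA, per the labels' protocols. The authors deposited expected counts (estimated counts per gene, of which 15% are not whole numbers at a tolerance of 1e-9), and the submitters' processing notes name STAR 2.61, Partek and the build mm10; which of them counted, and whether by strand, is not given in the sources used here. Of the 23378 rows 23351 match a GENCODE M21 (GRCm38) gene by symbol, start and end, once 1 is taken from the deposited end; locations and exon lengths come from that annotation. The smallest row sum over the libraries is 10, and 0 value columns had no sample.

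Counts were rounded, filtered with filterByExpr (minimum count 10, minimum total 15), scaled by TMM and fitted with edgeR 4.0.16 in R 4.3.3 (limma 3.58.1 loaded), with a coefficient per group over all 12 libraries. Each of the 6 comparisons used the quasi-likelihood F test with Benjamini-Hochberg adjustment over 14180 genes and a threshold of 0.05. CPM are counts per 1000000 of the TMM-scaled total, and per-kilobase levels divide by the union of exons. The SE is the size of the log2 fold change divided by the square root of F. The code was tested on simulated data. A fold against a group with 0 counts is a bound from a floor of 3 counts per library.

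The members and all gene lists were chosen with earlier results of these data known. Values in every library are given for called members and for those with the smallest p where none passed; of other lists, the called genes of highest level are named. Alternatives were DESeq2 1.42.0 (size factors, Wald test), library totals alone, no filter, only the groups compared, blocks by replicate number and each library left out. A result for 1 gene outside the members is not reported here.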

Additional observations from a re-analysis of the deposited data

Results flagged for a closer look

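In 66 sets of 4 CC libraries (each tested member on each diet), 1 had a library whose gap to the nearest other exceeded the 95% critical value of Dixon's test; chance flags about 1 in 20 sets, 3.3 of 66. Emx2, a homeobox factor of the nephric duct, had a log2 CPM of 4.01 in CC replicate 1 on low salt plus enalapril and of 3.61 to 3.66 in the other 3 libraries of that group.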

How the results depend on the processing

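Of the 17 members that differed between MD and CC cells with diets averaged, 12 kept their call in all 19 alternatives: Pax8, Irx1, Irx2, Irx3, Pou3f3, Tfap2b, Esrrg, Gata3, Gata2, Elf5, Mecom and Nfia. Sim2, Foxi1, Tfcp2l1, Nfib and Osr2 each lost it in at least 1, and no member followed through the alternatives changed direction. The 8 calls on control diet became 14 with DESeq2's Wald test (14.1% of all genes, from 6.61%), 4 with only the groups compared (3.54%), 15 with the replicate block by the number in the sample descriptions (16.2%) and 16 in the same 8 libraries without a block (17%), which was added after seeing the data; the cause was not tested. Leaving out each library gave 2 to 15 calls on control diet (0.755 to 17.7% of all genes), 3 to 14 with low salt plus enalapril (1.22 to 13.5%), 13 to 19 with diets averaged (10.4 to 28.2%), and 0 in each diet comparison and in their difference.

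The replicate block by title number gave 7 calls on control diet (2.67% of all genes) and 8 with low salt plus enalapril (2.79%). Averaged, it gave 14 (13.5%) and cost Osr2 (adjusted p = 0.0645), Foxi1 (0.0965) and Nfib (0.0716) their calls. The block by description number gave 14 on low salt plus enalapril (16%), 21 averaged (26.5%) and 0 for the difference of diet effects (0%). The diet effect within a population could not be fitted with that block. Neither number is shown to pair the libraries. Correlations of deviations between libraries that share a description number were 0.23, -0.02, 0.08 and -0.04. In groups of 2 the deviations of the MD libraries mirror each other, so these correlations can hardly show or exclude pairing. The descriptions name the libraries that share a number as cell and ctrl but do not say what the number marks, and the main test treats them as unpaired. With library totals alone the averaged comparison gave 9 higher and 9 lower members, 16 of them shared, against 23.1% of all genes. The median log2 fold change over every gene tested then went from -0.06 to 0.14 (control diet 0.12, low salt plus enalapril 0.16). Groups of 2 MD libraries, and levels near the floor in Elf5, Osr2 and Grhl1, limit the precision. The direction of the Elf5 and Osr2 calls was largely set by passing the filter through CC libraries alone.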
